A study of Mus musculus with 6 samples.

Results

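The clustered histone genes are the protein-coding genes that supply the bulk of histone H1, H2A, H2B, H3 and H4 while DNA is being copied. They were taken as every protein-coding row of the count table whose GENCODE vM21 symbol begins with Hist1h, Hist2h, Hist3h or Hist4h, which gave 65 genes of 49584 rows, or of 21734 protein-coding rows. By type they comprised 6 H1, 18 H2A, 16 H2B, 12 H3 and 13 H4 genes. The annotation holds 67 such genes, and Hist1h2bm and Hist1h2bh were not analysed here. The rule uses gene names and no measured value, but it was set with earlier results of these data known.

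The libraries were made by Smart-seq2, which copies polyadenylated RNA into cDNA and amplifies it by PCR, from leptotene and zygotene spermatocytes of mice at postnatal day 12. These are germ cells in the first stages of meiotic prophase, and they were collected by fluorescence-activated cell sorting. Of 6 libraries, 3 were labelled Srp68 SKO and 3 wild type, and the series design text calls the latter controls. Srp68 encodes a protein of the signal recognition particle, which brings ribosomes that make secreted and membrane proteins to the endoplasmic reticulum, and the series title links its knockout to arrest in meiosis. The labels do not expand SKO and give no strain, allele or driver of the deletion. Nor do they say whether each replicate is a different animal. The p-values therefore rest on how far these libraries differ from each other, which may be technical variation. Total counts were 14.3 to 15.4 M in wild type and 11.9 to 12.7 M in SKO, and 3 counts, the limit that a count of 0 allows, equalled 0.174 to 0.289 CPM, the unit of counts scaled to a common library size by TMM (TMM-scaled CPM). Srp68 stood at 21.7, 29.3 and 22.6 CPM in wild type and at 12.1, 6.52 and 6.93 CPM in SKO (log2 fold change −1.52, SE 0.28, adjusted p = 0.00107).

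Most histone genes lie together in clusters, have no introns and are transcribed in S phase. Their mRNAs, alone among those of animal cells, usually end not in a poly(A) tail but just after a short stem-loop, which is bound by the stem-loop binding protein SLBP and cut 3′ of the loop with the help of the U7 small nuclear ribonucleoprotein. Polyadenylated forms of the same genes are also known, among them in cells that have left the cell cycle. Oligo(dT)-primed libraries read transcripts with a poly(A) tail or an A-rich stretch. The levels below therefore cover histone mRNA that ends at the stem-loop at most where it holds such a stretch. The share of each form was not measured. A few members are germ cell variants: Hist1h2ba and Hist1h2aa encode the testis-specific TH2B and TH2A, and Hist1h1t encodes the testis-specific linker histone H1t.

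The stem-loop is shown first because it is the feature that sets these mRNAs apart from the transcripts the method was made for. A 16-letter pattern (GG, any 2 bases, CTTTT, any base, AG, any 2 bases and CC) was searched on the sense strand of GENCODE vM21 coding transcripts (GRCm38). It was found in 42 of the 65 members and in 28 other genes, so that 70 of 21734 coding genes (0.322%) held it. Of the 23 members without it, 16 had gene models whose length was a multiple of 3, as models without UTRs have. The lines below give 30 bases around the stem-loop in the 5′ to 3′ direction, with the 16 letters in capitals, for 2 genes of H4 and 1 gene each of H2A, H2B, H1 and H3.
Hist1h4d: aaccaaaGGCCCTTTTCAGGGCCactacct
Hist1h4i: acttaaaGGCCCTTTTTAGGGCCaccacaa
Hist1h2ao: aaaaaaaGGCTCTTTTCAGAGCCatccaca
Hist1h2bb: acccaaaGGCTCTTTTAAGAGCCacccaca
Hist1h1e: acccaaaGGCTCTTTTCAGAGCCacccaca
Hist1h3a: aaccaaaGGCTCTTTTCAGAGCCacacacg
The stems differed by type. All 11 H4 genes with the pattern had a stem beginning GGCCC (9 genes) or GGTCC (2 genes), and all 31 genes of the other types had GGCTC. The pattern stood within 100 bases of the transcript end in 21 members, and in the other 21 the model ran on past it, by 770 bases in Hist1h4d and 2445 bases in Hist4h4.

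In Srp68 SKO spermatocytes 14 clustered histone genes were higher and 0 were lower than in wild type (edgeR quasi-likelihood test, Benjamini-Hochberg adjusted p under 0.05 over 13474 tested genes). The 14 comprised 5 H4, 4 H2A, 3 H2B and 2 H1 genes, and no H3 gene. Enough counts for the test were present in 41 of the 65 members, so 34.1% of those tested were higher, where 14.1% of all tested genes were higher and 14.4% lower. The other 27 tested members did not pass. At an unadjusted p under 0.05, edgeR found 15 members higher and 0 lower. DESeq2 and limma-voom each called 14 higher and 0 lower, and at an unadjusted p under 0.05 they also found 0 lower.

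The median log2 fold change of the tested members was 0.88, beside −0.03 over all tested genes, and 34 of 41 members had a value above 0, beside 48.5% of all tested genes. In 20 of 41 (48.8%) every SKO library stood above every wild type library, which held for 21.6% of all tested genes. In 0 members did every SKO library stand below, which held for 22.2%. With libraries scaled by their totals alone the median of all genes moved to −0.29 and that of the members to 0.62. A change of scaling moves all genes of a library alike, so the gap of 0.91 between these medians stays by construction. With offsets for GC content and transcript length, which can change the gap, it was 0.66. Scaling by totals alone ended the calls of Hist1h4i, Hist1h2ag, Hist1h1e and Hist1h4c.

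**Figure D1:**
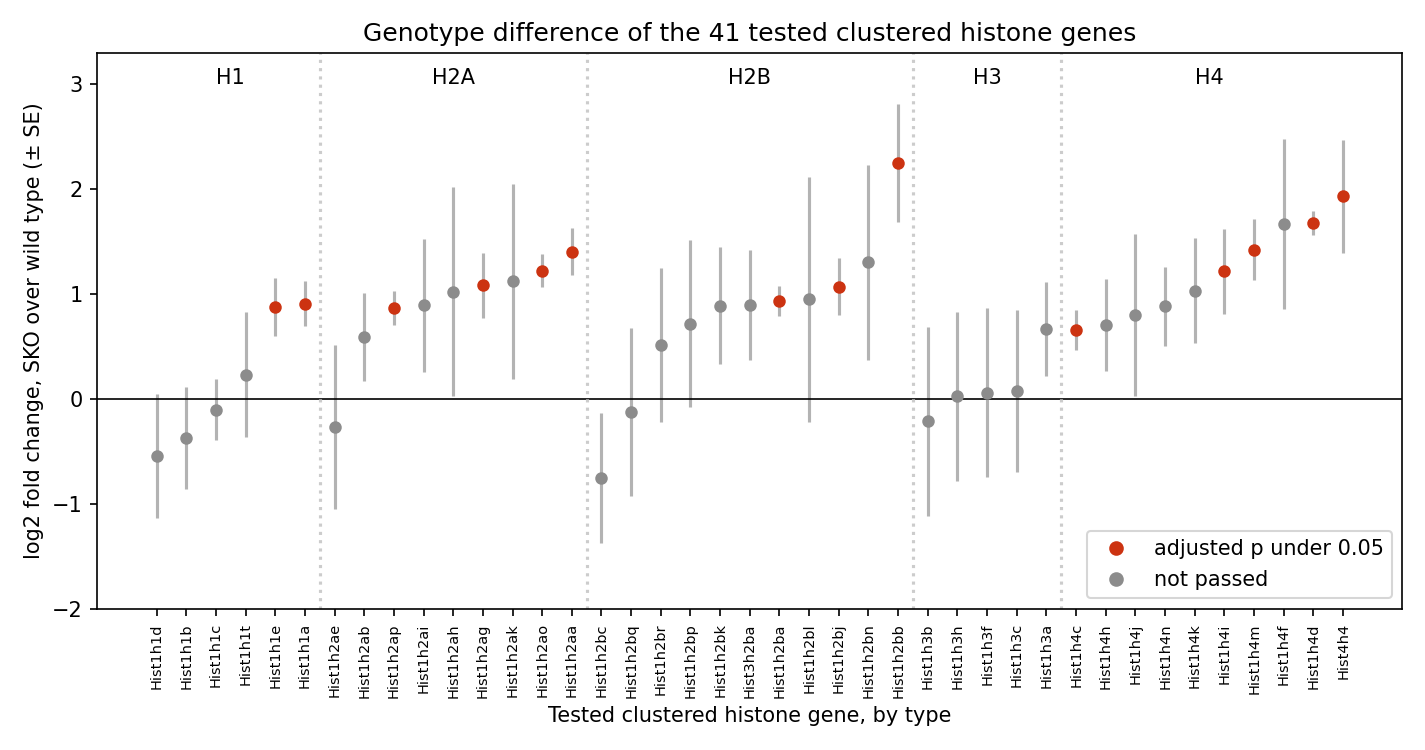
Log2 fold change (SKO over wild type, vertical axis) with its standard error (bars) for the 41 tested clustered histone genes, grouped by histone type along the horizontal axis, with genes past the threshold in red. All 10 H4 genes lie above 0, the 5 H3 genes lie between −0.21 and 0.67, and the 14 red points are all above 0.

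The 24 untested members had few counts in both genotypes, with a mean of at most 0.790 CPM, and 7 of them had a count of 0 in every library. Of these 7, 5 share all their windows with other genes and cannot be read as not expressed. In a fit without the low-count filter, which took in 58 members, 14 were higher and 0 lower, with a median of 0.86. Over all genes of that fit 7.79% were higher, with a median of 0.04. That share was 14.1% in the main fit and 21.9% with a filter of 5 CPM in 3 libraries. Among the tested members, all 7 with a mean above 15 CPM over the 6 libraries were higher, and 7 of the 34 at or below it. That mean holds the SKO values, so the split draws in part on the change itself. Hist1h2aa cleared the cut with 10.4 CPM in wild type and 27.5 CPM in SKO. Hist1h1c, named after its values were seen and not called, stood below it with 12.5 and 11.6 CPM. The members that did not pass had standard errors of 0.29 to 1.17, beside 0.11 to 0.57 for those called, so changes of the sizes called here were often not detectable in them at this depth.

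Summed over all 65 genes, clustered histone transcripts stood at 349, 386 and 391 CPM in wild type and 824, 903 and 814 CPM in SKO. The groups did not overlap, and the means of 375 ± 22.7 and 847 ± 48.7 CPM (SD, n = 3) differed 2.26-fold. As a share of raw counts, they made up 0.0410 ± 0.00272% in wild type and 0.0772 ± 0.00527% in SKO (SD, n = 3). Hist1h4d alone held 29.5 ± 1.24% of the summed CPM in wild type and 41.6 ± 2.67% in SKO. Without it the sum was 265 ± 20.3 and 493 ± 5.93 CPM, a 1.86-fold difference. Because each library pools many cells, a different share of cells of a given stage and a different amount of RNA per cell cannot be told apart.

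**Figure D2:**
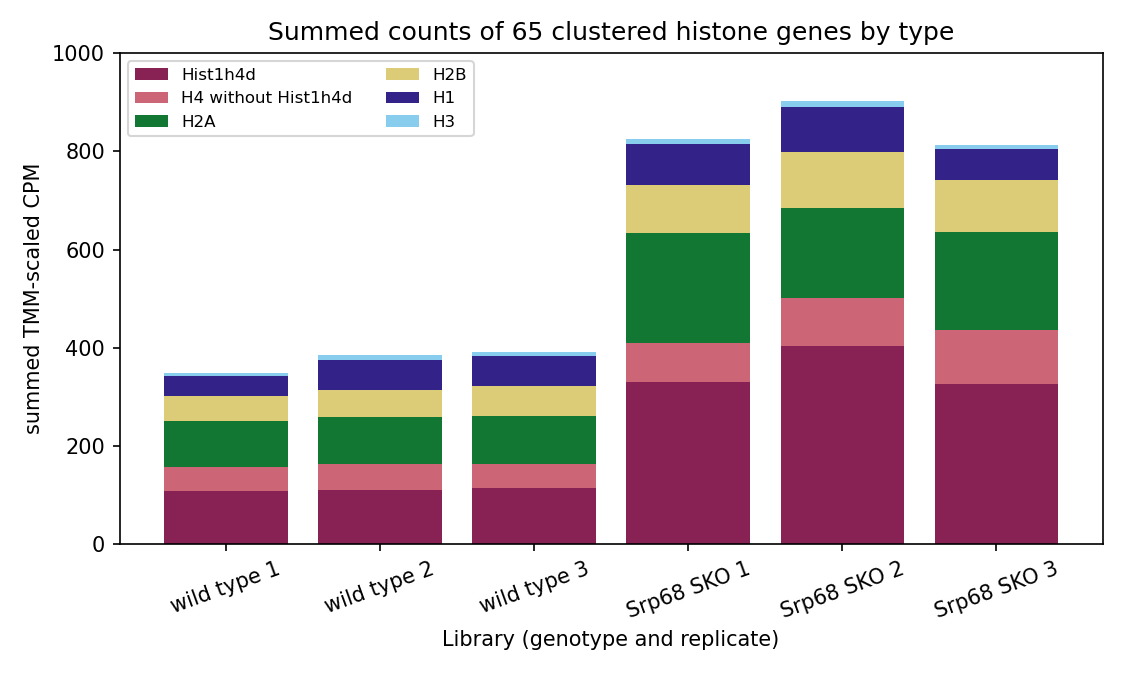
Stacked bars of the summed TMM-scaled CPM (vertical axis, from 0) of all 65 clustered histone genes in each of the 6 libraries, divided into Hist1h4d, the other H4 genes, H2A, H2B, H1 and H3. The 3 wild type bars end at 349 to 391 CPM and the 3 SKO bars at 814 to 903 CPM, with Hist1h4d the tallest segment in every library.

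H4, which pairs with H3 at the centre of the nucleosome, was the type with the most counts. All 10 tested H4 genes had a log2 fold change above 0 (median 1.13), 5 passed the test, and in 8 the groups did not overlap. Among all tested genes 14.1% were higher, and in 21.6% every SKO library stood above every wild type library. The summed H4 level was 161 ± 3.90 CPM in wild type and 449 ± 46.8 CPM in SKO, a 2.78-fold difference, and 1.88-fold without Hist1h4d (50.9 and 95.8 CPM).

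Hist1h4d (ENSMUSG00000061482, chr13:23581598-23582735, plus strand, GRCm38) was the most abundant member. It had 1672, 1895 and 1738 counts in the wild type libraries and 4014, 4337 and 3390 counts in the SKO libraries, or 108, 110 and 114 against 330, 404 and 326 CPM. All 3 SKO libraries were far above all 3 wild type libraries, and the spread within wild type was small. The means were 110 ± 3.09 and 353 ± 43.6 CPM (SD, n = 3; log2 fold change 1.68, SE 0.11, adjusted p = 7.18e-07). Per length it stood at 97.1 CPM per kb of exon in wild type and 311 CPM per kb in SKO, the highest of the members in both. None of its 150-base windows occurs letter for letter in another gene of the annotation. Shorter or mismatched reads were not examined, so sharing of reads with the other H4 genes was not measured. Hist1h4d kept its call under every alternative run, with log2 fold changes from 1.42 to 1.73.

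Hist1h4c (chr13:23697635-23698454, minus strand) stood at 26.2, 32.1 and 28.4 CPM in wild type and 35.7, 46.2 and 54.9 CPM in SKO (log2 fold change 0.66, SE 0.19, adjusted p = 0.0182). It had the smallest change among the called members, and its lowest SKO library was close to its highest wild type library. Hist1h4i (chr13:22040636-22041362, minus strand) had 6.06, 2.72 and 2.69 CPM in wild type and 6.58, 10.6 and 9.53 CPM in SKO (log2 fold change 1.22, SE 0.40, adjusted p = 0.0366). Its first wild type library nearly reached its first SKO library. With offsets for GC content and transcript length neither gene passed (adjusted p = 0.0867 for Hist1h4i and 0.168 for Hist1h4c). Hist1h4i also did not pass without wild type replicate 2 or 3 or SKO replicate 2 or 3, and Hist1h4c without wild type replicate 1 or SKO replicate 2 or 3.

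Hist1h4m (chr13:21811746-21812147, plus strand) had 4.45, 6.55 and 5.37 CPM in wild type and 13.8, 12.9 and 17.2 CPM in SKO (log2 fold change 1.42, SE 0.29, adjusted p = 0.00221). The groups were well apart, but 85.8% of its windows occur in another gene, Hist1h4n, so its counts may include reads of that gene. Hist4h4, which lies alone on chromosome 6 (chr6:136801553-136804415, minus strand), had 0.773, 1.68 and 1.18 CPM in wild type and 3.54, 4.28 and 6.16 CPM in SKO (log2 fold change 1.93, SE 0.54, adjusted p = 0.0158). Only 0.737% of its windows are shared, and its call was lost without SKO replicate 3 (log2 fold change 1.68, adjusted p = 0.0964). The 5 H4 genes that did not pass, named after their values were seen, were Hist1h4f (log2 fold change 1.67, adjusted p = 0.144), Hist1h4h (0.70, adjusted p = 0.261), Hist1h4n (0.88, adjusted p = 0.1002), Hist1h4j (0.80, adjusted p = 0.483) and Hist1h4k (1.03, adjusted p = 0.145). The groups did not overlap in Hist1h4f, Hist1h4h and Hist1h4n and overlapped in Hist1h4j and Hist1h4k.

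**Figure D3:**
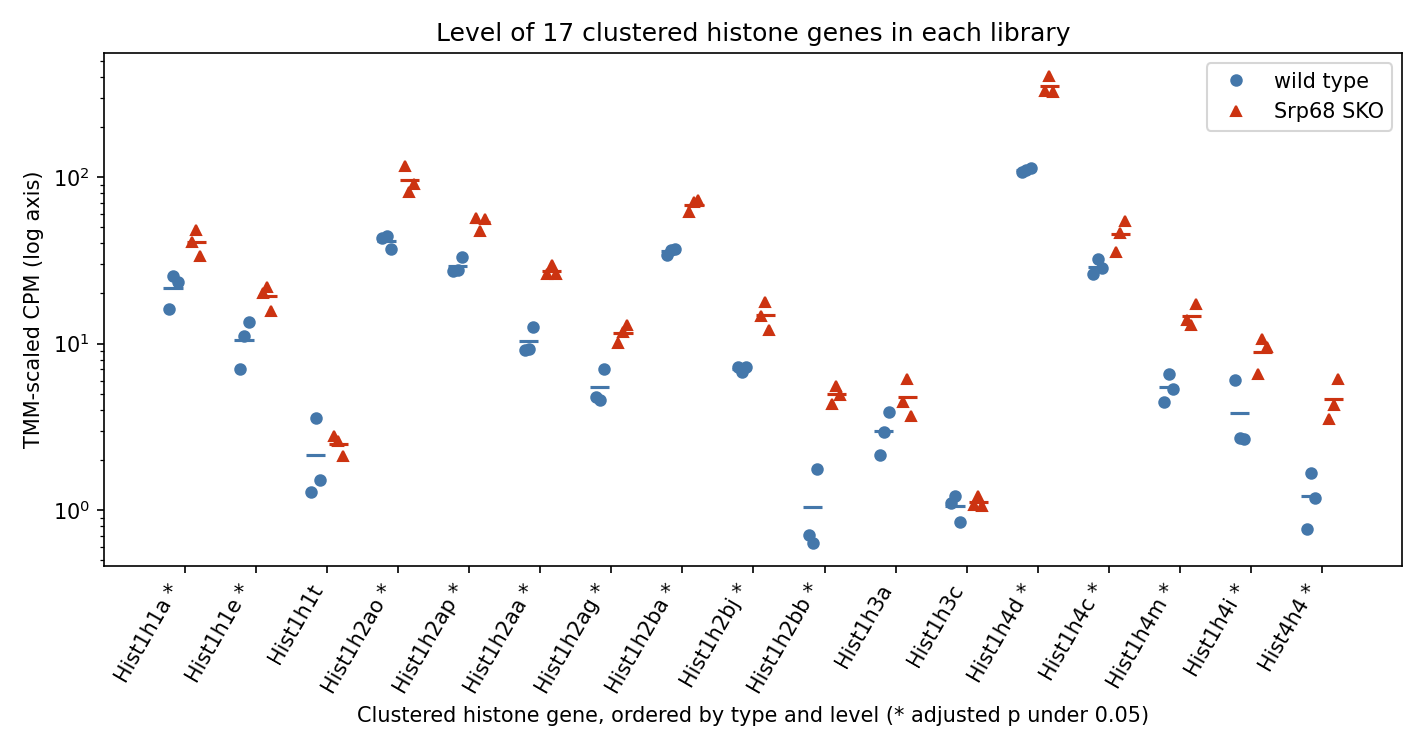
TMM-scaled CPM (vertical log axis) of 17 clustered histone genes in each library, with wild type as blue circles, SKO as red triangles, group means as short lines, and an asterisk for an adjusted p under 0.05. The 14 genes with an asterisk show every SKO library above every wild type library, and Hist1h1t, Hist1h3a and Hist1h3c show overlapping groups.

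H2A and H2B form the dimers on the outer faces of the nucleosome. Of 9 tested H2A genes 4 were higher and 0 lower (median log2 fold change 1.02), and of 11 tested H2B genes 3 were higher and 0 lower (median 0.89). For all tested genes the shares were 14.1% higher and 14.4% lower. The summed H2A level was 95.1 ± 1.84 CPM in wild type and 202 ± 20.8 CPM in SKO, and that of H2B 56.4 ± 4.90 and 106 ± 8.97 CPM (SD, n = 3), with no test of the sums.

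Hist1h2ao (chr13:21810465-21810944, plus strand), the most abundant H2A gene, had 42.9, 44.0 and 36.8 CPM in wild type and 117, 81.3 and 90.8 CPM in SKO (log2 fold change 1.22, SE 0.16, adjusted p = 7.61e-05). Hist1h2ap (chr13:21833026-21833507, minus strand) followed with 27.1, 27.7 and 33.2 CPM in wild type and 56.8, 47.5 and 56.2 CPM in SKO (log2 fold change 0.87, SE 0.16, adjusted p = 0.00133). In both genes every SKO library stood well above every wild type library. They are near-copies: 91.5% of the windows of Hist1h2ao and 91.0% of those of Hist1h2ap occur in other genes, so the division of reads between them is uncertain. A predicted gene on the opposite strand also overlaps 28.8% of the exon of Hist1h2ao and 28.6% of that of Hist1h2ap, and no source used here gives the strand setting of the counting.

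The germ cell pair Hist1h2ba and Hist1h2aa lies apart from the rest of the chromosome 13 cluster, in a stretch of 1.08 kb. Hist1h2ba (TH2B; chr13:23933773-23934156, minus strand) had 34.1, 36.3 and 36.9 CPM in wild type and 61.6, 70.5 and 72.8 CPM in SKO (log2 fold change 0.93, SE 0.15, adjusted p = 0.000311). Hist1h2aa (TH2A; chr13:23934462-23934851, plus strand) had 9.22, 9.33 and 12.6 CPM in wild type and 26.3, 29.8 and 26.4 CPM in SKO (log2 fold change 1.40, SE 0.23, adjusted p = 0.000374). In both the replicates of a genotype were close together and the genotypes were far apart. Hist1h2ba held 63.6 ± 3.20% of the summed H2B CPM, not per length, in wild type and 64.4 ± 3.32% in SKO, so its share differed by less than the spread between libraries. Hist1h2aa held 10.9 ± 1.80% of the summed H2A CPM in wild type and 13.8 ± 2.31% in SKO, with overlapping groups. A predicted gene on the opposite strand overlaps 33.1% of the exon of Hist1h2aa.

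The 2 genes are transcribed away from each other, with 305 bases between them. The 250 bases before the RefSeq start of Hist1h2aa (chr13:23934187-23934436, plus strand, GRCm38.p6) are printed because this stretch lies between both starts and both genes were called. Capitals mark the TATA motif TATAAA, the CCAAT motif and the octamer ATTTGCAT, each searched on both strands, so that the reverse complements are in capitals too.
Hist1h2aa: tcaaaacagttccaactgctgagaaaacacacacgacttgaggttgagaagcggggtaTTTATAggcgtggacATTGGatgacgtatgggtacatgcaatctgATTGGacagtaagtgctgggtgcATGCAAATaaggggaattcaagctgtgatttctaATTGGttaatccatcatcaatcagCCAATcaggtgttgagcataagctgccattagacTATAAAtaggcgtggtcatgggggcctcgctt
The window before Hist1h4d (chr13:23581318-23581567, plus strand), the most abundant member, is set beside it.
Hist1h4d: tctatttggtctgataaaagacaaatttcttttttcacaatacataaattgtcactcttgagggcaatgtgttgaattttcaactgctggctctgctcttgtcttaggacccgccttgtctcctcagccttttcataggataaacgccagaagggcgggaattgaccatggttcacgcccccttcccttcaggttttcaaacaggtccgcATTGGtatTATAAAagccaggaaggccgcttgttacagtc
The octamer, known from H2B promoters as a site for the factor OCT1, was in the first window and not in the second. Among the 60 members with a RefSeq promoter, 12 held the octamer, 7 of 18 H2A, 5 of 14 H2B and 0 of the rest, beside 1.60% of 32851 RefSeq promoters. CCAAT was in 49 members (81.7%), beside 33.8% of all promoters, and in all 6 H1, all 18 H2A and all 14 H2B genes but in 3 of 12 H4 genes. TATAAA was in 29 members (48.3%), beside 12.4%. These are matches of letters and no measure of binding. The windows of divergent pairs can overlap, so the same site can count for both genes, as the octamer does for Hist1h2ba and Hist1h2aa. The H2A and H2B counts are therefore not independent.

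Of the other called genes of these types, Hist1h2ag and Hist1h2bj are also a divergent pair, 269 bases apart. Hist1h2ag (chr13:22042460-22042944, minus strand) had 4.77, 4.58 and 7.07 CPM in wild type and 10.1, 11.8 and 12.9 CPM in SKO (log2 fold change 1.08, SE 0.31, adjusted p = 0.0177). Hist1h2bj (chr13:22043214-22043676, plus strand) had 7.28, 6.72 and 7.20 CPM in wild type and 14.6, 17.9 and 12.1 CPM in SKO (log2 fold change 1.07, SE 0.27, adjusted p = 0.00887). The fold changes of the pair were nearly the same, and neither passed without SKO replicate 2 (adjusted p up to 0.0669 for Hist1h2ag and 0.0598 for Hist1h2bj over the alternatives). Hist1h2ag also did not pass without wild type replicate 1 or 2 or SKO replicate 3. For Hist1h2ag 65.5% of windows occur in other genes. Hist1h2bb (chr13:23746734-23747241, plus strand) had 0.709, 0.637 and 1.77 CPM in wild type and 4.36, 5.58 and 4.91 CPM in SKO (log2 fold change 2.25, SE 0.57, adjusted p = 0.00831). Its fold change was the highest of the 14, from a low level in wild type. Hist1h2bc, named after its values were seen, had the lowest log2 fold change of all tested members, −0.75 (SE 0.62, adjusted p = 0.407), and did not pass.

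There were 12 divergent pairs of an H2A and an H2B gene, with 175 to 305 bases between the starts. Both genes were tested in 7 pairs, and both were higher in 2, the pairs above. In 2 further pairs only the H2A gene passed: Hist1h2ao, with 5225 counts over the 6 libraries, beside Hist1h2bq with 84 counts (log2 fold change −0.12), and Hist1h2ap, with 3191 counts, beside Hist1h2br with 153 counts (log2 fold change 0.51). The members of these pairs differed 62.2-fold and 20.9-fold in counts. Hist1h2bq shares 100% and Hist1h2br 99.8% of its windows with other genes, so their low counts may mean that reads were not assigned. Hist1h2ao shares 91.5% and Hist1h2ap 91.0%, so part of their reads may be missing too. The source of the gap in counts was not tested. The difference in fold change within a pair was not tested.

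H1 is the linker histone that binds where DNA enters and leaves the nucleosome. Of its 6 genes 2 were higher and 0 lower, beside 14.1% higher and 14.4% lower among all tested genes. The median log2 fold change was 0.06. Hist1h1a (chr13:23763666-23764406, plus strand) had 16.2, 25.6 and 23.4 CPM in wild type and 40.7, 48.2 and 33.5 CPM in SKO (log2 fold change 0.91, SE 0.22, adjusted p = 0.00592). Hist1h1e (chr13:23620629-23622558, minus strand) had 7.02, 11.1 and 13.4 CPM in wild type and 20.2, 21.9 and 15.8 CPM in SKO (log2 fold change 0.88, SE 0.28, adjusted p = 0.0296). The groups did not overlap in either gene. The call of Hist1h1e was lost when wild type replicate 1 or 2 or SKO replicate 1 or 2 was left out, and its exons overlap other genes of the same strand over 25.7% of their length.

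Hist1h1t, the testis-specific H1 gene (chr13:23695814-23696725, plus strand), had 1.29, 3.59 and 1.51 CPM in wild type and 2.80, 2.61 and 2.12 CPM in SKO (log2 fold change 0.23, SE 0.60, adjusted p = 0.815). The SKO values lay within the wild type range. It was thus low in both genotypes, below the other testis variants per length: 2.33 and 2.75 CPM per kb, beside 26.6 and 70.4 CPM per kb for Hist1h2aa and 93.1 and 178 CPM per kb for Hist1h2ba, whose models hold coding length only. Hist1h1c, Hist1h1b and Hist1h1d, named after their values were seen, had log2 fold changes of −0.10, −0.37 and −0.54 and adjusted p of 0.829, 0.618 and 0.540. Within the summed H1 CPM, Hist1h1a made up 40.4 ± 1.27% in wild type and 51.6 ± 2.55% in SKO, and Hist1h1c 23.0 ± 1.33% and 14.6 ± 1.35% (SD, n = 3). These shares did not overlap between the genotypes, and they were not tested.

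H3 was the type with the fewest counts. Of 12 H3 genes 5 had enough counts to test, and 0 passed in either direction by edgeR, DESeq2 or limma-voom, with 0 at an unadjusted p under 0.05 in each. By edgeR 28.5% of all tested genes passed in either direction. The log2 fold changes of the 5 H3 genes ran from −0.21 to 0.67 with a median of 0.06. Hist1h3a (chr13:23761853-23762386, minus strand) had 2.13, 2.95 and 3.86 CPM in wild type and 4.44, 6.14 and 3.66 CPM in SKO (log2 fold change 0.67, SE 0.45, adjusted p = 0.298). Its lowest SKO library fell between the upper 2 wild type libraries. Hist1h3c (chr13:23744973-23745602, minus strand) had means of 1.05 ± 0.186 and 1.11 ± 0.0843 CPM (log2 fold change 0.08, SE 0.77, adjusted p = 0.957). The H3 sum was 8.60 ± 1.38 CPM in wild type and 10.6 ± 1.87 CPM in SKO. Whether types differ in their change was not tested.

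Along the chromosomes, the members fell into 7 groups of neighbours. In the group of 10 on chromosome 3, 7 genes had no count in any library and 0 had enough counts to test. For Hist2h2aa2, Hist2h2aa1, Hist2h3c1, Hist2h3b and Hist2h2bb, 100% of windows occur in other genes, so a count of 0 may mean that their reads were not assigned. Hist2h2ab shares 52.5% of its windows, and Hist2h2be, which shares none, also had no count. Hist2h4 there, named after its values were seen, had 1 count over the wild type libraries and 26 over the SKO libraries, a ratio of 37.5 after scaling (95% exact interval 6.17 to 1539, counting error only), and without the low-count filter its adjusted p was 0.111. On chromosome 13 the groups held 17, 5, 28 and 2 members, of which 15, 5, 17 and 2 were tested and 3, 3, 5 and 2 were higher. The share higher among all tested genes was 14.1%. In the largest group Hist1h4d, Hist1h1e, Hist1h4c, Hist1h2bb and Hist1h1a were higher, 12 did not pass and the others were not tested.

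**Figure D4:**
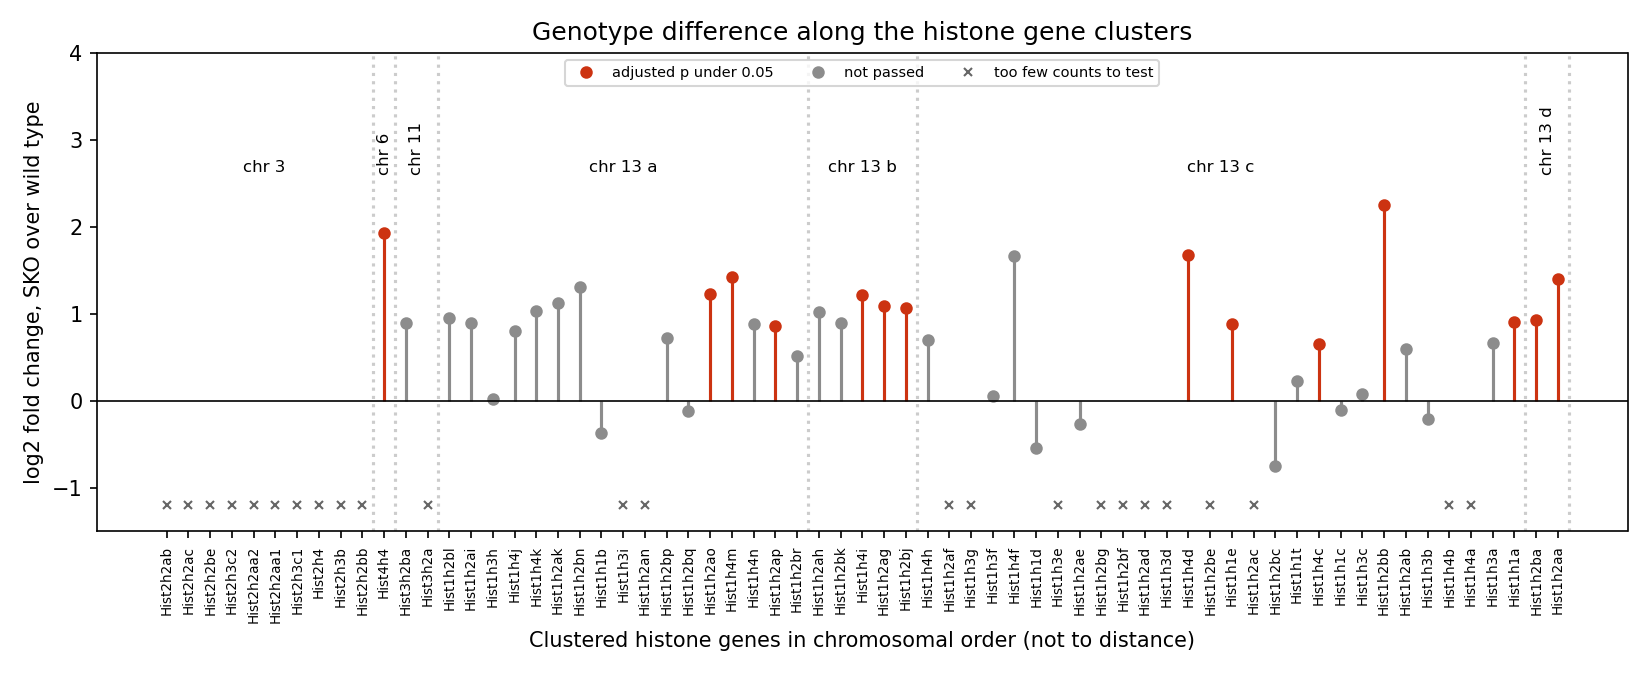
Log2 fold change (SKO over wild type, vertical axis) of clustered histone genes in chromosomal order (horizontal axis, not to distance), with dotted lines between the 7 groups of neighbours, red for an adjusted p under 0.05, grey for tested genes that did not pass and crosses for genes with too few counts. The group on chromosome 3 holds crosses only, and called genes occur in each of the 4 groups on chromosome 13.

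Called genes occurred with each kind of model end. Among tested members, 5 of 12 with over 100 bases after the stem-loop were higher (median log2 fold change 0.73), 6 of 15 with up to 100 bases (median 0.88) and 3 of 14 with no stem-loop in the model (median 0.92). The poly(A) signal AATAAA stood in the last 50 bases of 8 tested members, of which Hist4h4 was higher, and 13 of the other 33 were higher. By exon length, 8 of 21 genes of up to 600 bases were higher (median 1.02) and 6 of 20 longer ones (median 0.37). By sequence shared with other genes, 6 of 13 with under 10% of windows shared were higher (median 0.91), 4 of 16 with 10 to 50% (median 0.71) and 4 of 12 with over 50% (median 0.89). Hist1h4d, Hist1h4c, Hist1h4i, Hist4h4, Hist1h1a and Hist1h2aa are the 6 called genes with under 10% shared. None of these splits was tested, and 14.1% of all tested genes were higher.

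Genes that act on clustered histone transcripts or their products moved in both directions. Of 33 tested genes listed for histone mRNA 3′ processing, among them the transcription coactivator Npat, 9 were higher and 8 lower (median log2 fold change 0.00). Over all tested genes 14.1% were higher and 14.4% lower. In this list 4 were lower without wild type replicate 2, 5 lower without SKO replicate 2 and 5 higher with library totals alone. The 3 called with the smallest p were higher: Snrpe, an Sm protein, rose from 681 ± 53.8 to 1338 ± 135 CPM (log2 fold change 0.97, adjusted p = 1.44e-05), Casp8ap2 (FLASH), a partner of the U7 particle, from 251 ± 15.5 to 487 ± 52.4 CPM (0.96, adjusted p = 2.53e-05), and Lsm1, of the Sm-like ring that binds RNA ends in decay, rose by a log2 fold change of 0.84 (adjusted p = 4.25e-05). Slbp, Npat and Hinfp were named after their values were seen. Slbp, which encodes the stem-loop binding protein, had 739 ± 105 and 740 ± 77.4 CPM (log2 fold change 0.00, SE 0.12, adjusted p = 0.994). Npat, a coactivator of histone gene transcription in S phase, rose from 76.3 ± 4.6 to 139.9 ± 2.28 CPM (log2 fold change 0.87, adjusted p = 8.6e-05). Hinfp, of the same list, fell from 23.3 ± 3.63 to 14.2 ± 4.09 CPM (log2 fold change −0.71, adjusted p = 0.0459).

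DNA replication genes, which act in the phase when clustered histone genes are transcribed in dividing cells, had a median log2 fold change of −0.09. Of 47 tested, 11 were higher and 6 lower, beside 14.1% higher and 14.4% lower among all tested genes. With library totals alone 4 were higher and 18 lower. With GC content and length offsets 7 were higher. Without SKO replicate 1 or 3, 7 were higher, and without wild type replicate 2 or SKO replicate 2, 2 were lower. Among the higher genes, Rfc4, a subunit of the clamp loader, rose from 482 ± 40.5 to 800 ± 32.9 CPM (0.73, adjusted p = 8.34e-05) and Gmnn, the licensing inhibitor geminin, from 314 ± 31.8 to 529 ± 39.3 CPM (0.75, adjusted p = 0.000143). Rpa3, of the single-strand binding complex, rose from 151 ± 15.5 to 331 ± 58.3 CPM (1.13, adjusted p = 4.05e-05) and did not pass with GC content and length offsets (0.29, adjusted p = 0.0673). Lower genes included Rfc2 (−0.79, adjusted p = 0.00148) and Rfc5 (−0.77, adjusted p = 0.0151), also of the clamp loader. The others of the 6 were Mcm3 (−0.83), Mcm7 (−0.68), Cdt1 (−1.26) and Gins2 (−0.40). Rpa1 (−0.32, adjusted p = 0.206) and Rpa2 (−0.15, adjusted p = 0.380), of the same complex as Rpa3, did not pass. The lower genes, Rpa1 and Rpa2 were named after their values were seen. Of 30 histone chaperone genes, 8 were higher and 6 lower (median 0.06). They included Npm1 (0.98, adjusted p = 6.12e-06) and the acetyltransferase Hat1 (0.71, adjusted p = 0.000107) among the higher and Cabin1 (−1.23, adjusted p = 0.000412) among the lower. The 8 higher chaperone genes became 5 without SKO replicate 2 or 3, 4 with GC content and length offsets and 3 with library totals alone.

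Histone genes outside the clusters, which are transcribed through the whole cell cycle and mostly carry poly(A) tails, moved in both directions. Of 13 tested, 2 were higher and 3 lower (median log2 fold change 0.06), beside 14.1% higher and 14.4% lower among all tested genes. In this list 1 was higher without wild type replicate 2, without SKO replicate 3 or with library totals alone. With GC content and length offsets 1 was lower. H2afz, the H2A.Z gene, rose from 1434 ± 170 to 2231 ± 189.9 CPM (0.64, adjusted p = 0.000398). H2afx, whose product is phosphorylated at DNA breaks, fell from 142 ± 22.2 to 52.5 ± 2.52 CPM (−1.44, adjusted p = 8.36e-06). H1f0, the H1 of resting cells, fell from 168 ± 29.9 to 109 ± 12.6 CPM (−0.63, adjusted p = 0.00498) and did not pass with GC content and length offsets (−0.34, adjusted p = 0.119).

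Markers of germ cell stages differed between the genotypes beside the histone genes. The shares over all tested genes were 14.1% higher and 14.4% lower. Of 18 leptotene and zygotene markers 14 were higher and 2 lower, and their summed level ran from 19916 to 24503 CPM in wild type and from 34418 to 44641 CPM in SKO. Of 10 tested pachytene markers 0 were higher and 7 lower, with sums of 735 to 844 and 559 to 642 CPM. Differentiating spermatogonia markers, of the dividing cells before meiosis, overlapped in sum (755 to 813 and 738 to 812 CPM; 1 of 8 higher, 2 lower), as did undifferentiated ones (15.5 to 34.6 and 21.2 to 31.3 CPM; 0 of 6 called). Spermatid markers summed to 19.6 to 30.6 CPM in wild type and 13.7 to 19.5 CPM in SKO (1 of 3 tested higher, 1 lower), with Prm2, Tnp2, Akap4 and Catsper1 at 0. Their part in the histone result was not tested.

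Somatic cell markers were low. Sertoli markers summed to 108 to 118 CPM in wild type and 41.8 to 181 CPM in SKO (0 of 7 called). Peritubular myoid markers summed to 2.14 to 3.54 and 8.75 to 17.8 CPM (2 of 2 tested higher, Des at 0). Leydig markers summed to 0.580 to 6.60 and 4.94 to 9.87 CPM (0 of 1 called, with Cyp17a1, Cyp11a1 and Hsd3b6 at 0). Over all tested genes 14.1% were higher and 14.4% lower. Macrophage markers summed to 1.80 to 2.26 and 2.05 to 41.1 CPM (1 of 1 higher, Lyz2). Lyz2, named after its values were seen, had 1.23, 0.558 and 25.2 CPM in SKO, mostly in replicate 3. The highest macrophage sum was that of SKO replicate 3, without which 10 of the 14 histone calls were kept, among them Hist1h4d, Hist1h2ao, Hist1h2ba and Hist1h2aa.

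The 14 calls differed in how they held under the 17 alternatives. All 14 were kept with RLE or upper-quartile size factors, with no low-count filter, in DESeq2, in limma-voom and in robust fitting, 12 with GC content and length offsets and 10 with library totals alone. Leaving out 1 library at a time kept 9 to 13 of them, the fewest without SKO replicate 2, when Hist1h4i, Hist1h2ag, Hist1h2bj, Hist1h1e and Hist1h4c did not pass.

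**Figure D5:**
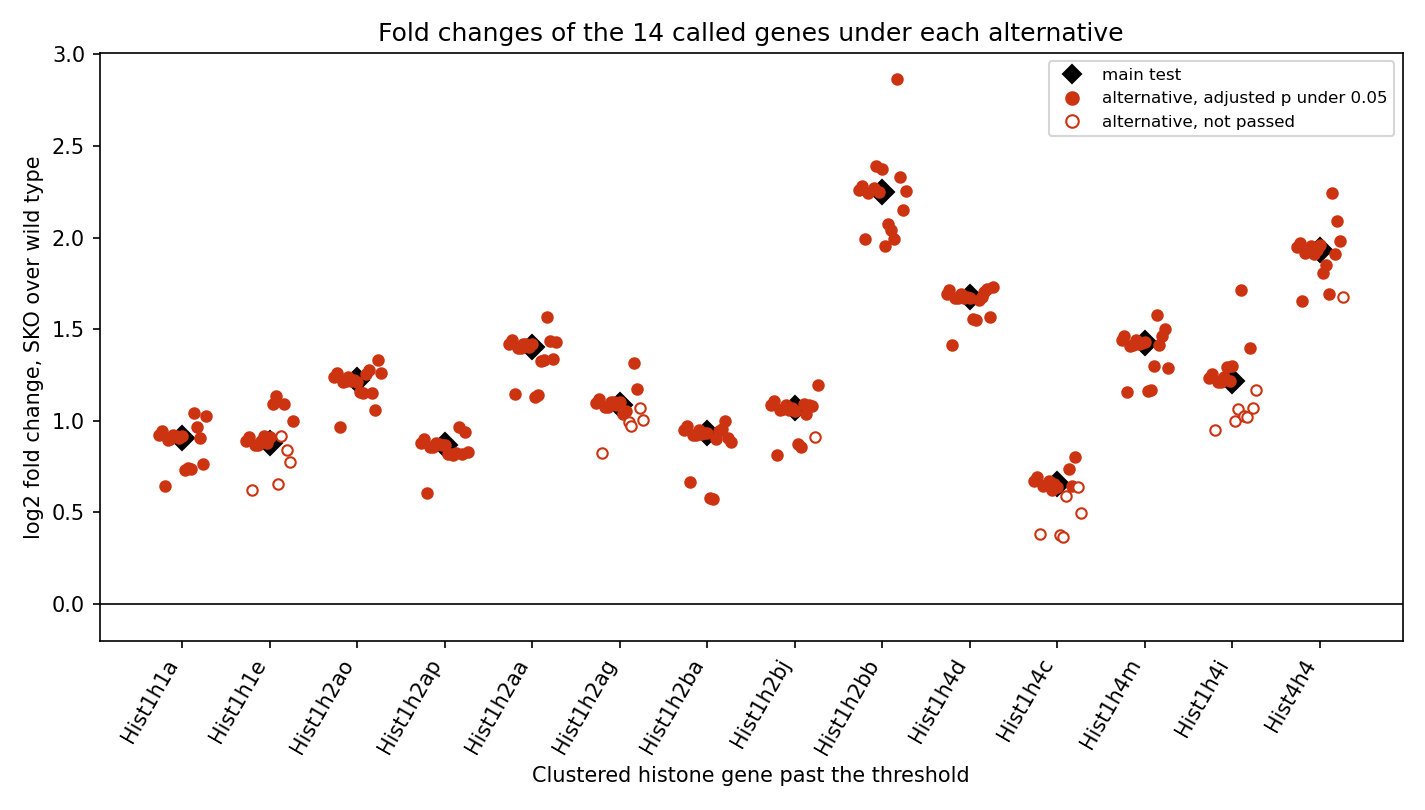
Log2 fold change (SKO over wild type, vertical axis) of each of the 14 called clustered histone genes in the main test (black diamonds) and in each alternative (circles, filled where the adjusted p stayed under 0.05 and open where it did not). Every point lies above 0, and open circles occur in 6 genes: Hist1h1e, Hist1h2ag, Hist1h2bj, Hist1h4c, Hist1h4i and Hist4h4.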

How the data were processed

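Polyadenylated RNA was measured in 6 libraries, 3 per genotype. Reads were checked with FastQC, trimmed with Trim Galore 0.6.4 and aligned with HISAT2 2.0.5 to GRCm38/mm10, per the submitters' processing notes. No source used here gives the counting tool, strand setting or annotation. The authors deposited raw counts per gene, unnormalized, with knockout columns named CKO. The reads have no molecular identifiers, so intervals and floors cover counting error only.

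The counts were tested with edgeR 4.0.16 in R 4.3.3 (filterByExpr, TMM, quasi-likelihood test, two-sided, genotype as the only term, Benjamini-Hochberg over 13474 genes, threshold 0.05). Fold changes are given as log2 of SKO over wild type. Replicates differed by more than counting noise (chi-square over its degrees of freedom, 12.0 to 22.2). GENCODE vM21 gave symbols for 49325 of 49584 rows. Members and gene lists were chosen with earlier results of these data known. Named members were Hist1h4d, Hist1h1t, Hist1h2ba, Hist1h2aa, every called member and the 2 most abundant of each type; from 4 other lists, the 3 called genes with the smallest p. Alternatives were other scalings and filters, DESeq2 1.42.0, limma-voom (limma 3.58.1), robust fitting, a replicate block, loess offsets (span 0.3) for GC content and length, and leaving out each library.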

Additional observations from a re-analysis of the deposited data

How the results depend on the processing

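Over all tested genes 1901 were higher and 1937 lower, a split that library totals alone moved to 1010 and 3168, from 49.5% to 24.2% of calls higher. Clustered histone genes lower in SKO numbered 0 in every alternative run, and those higher ranged from 9 to 13 when single libraries were left out (9 without SKO replicate 2) and were 10 with library totals. The median log2 fold change of the tested members, 0.88, became 0.62 with library totals and 0.65 with GC content and length offsets. It was 0.70 to 0.89 when single libraries were left out, and 0.99 with a filter of 5 CPM in 3 libraries. The fit with that filter held 14 members, 12 of them higher, beside 21.9% of all genes in it. Hist4h4 and Hist1h2bb were not in it. The filter takes any 3 libraries, so members low in wild type could enter through their SKO values. Its count and median therefore draw in part on the change itself. The members' share of counts, 0.0410% in wild type and 0.0772% in SKO, became 0.0289% and 0.0450% without Hist1h4d, and 0.0467% and 0.0911% of nuclear protein-coding counts without ribosomal proteins. The cause was not tested.

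Replicate numbers are shared by both genotypes, but the deviations of same-numbered libraries correlated at 0.02, −0.05 and 0.04, so the numbers were not taken to pair them. With a replicate block 14 members were higher and 0 lower, with 1976 higher and 1991 lower genes in all, and no call of a named gene changed. GC content and length offsets with the replicate block gave a member median of 0.71 and kept 12 of 14 calls. Members with few counts limit the description: at 11.9 to 15.4 M counts per library, 24 of 65 could not be tested.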
